A study of Zea mays with 12 samples.

Results

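The genes that make and desaturate unsaturated fatty acids were followed in germinating maize embryos of 2 inbred lines at 2 temperatures. The members were the 37 genes, of 33589 in the deposited gene table, that the table placed in the KEGG map for biosynthesis of unsaturated fatty acids. Genes that the table also placed in the peroxisome, alpha-linolenic acid or sphingolipid maps were left out, and genes with a KEGG orthology number (KO) of a plant fatty acid desaturase were added. That addition brought no further gene, since all 15 genes with a desaturase number already stood in the map. Of these, 12 carried K03921, the soluble acyl-acyl carrier protein (acyl-ACP) desaturase of the plastid stroma, and 3 carried K10256, the omega-6 desaturase FAD2 of the endoplasmic reticulum (ER). No gene carried K10255 or K10257, the numbers of the plastid omega-6 and the omega-3 desaturases. The other 22 were 12 genes under K00059 (3-oxoacyl-ACP reductase), 4 under K10251 (very-long-chain 3-oxoacyl-CoA reductase), 2 under K10703 (3-hydroxyacyl-CoA dehydratase), 3 under K10258 (very-long-chain enoyl-CoA reductase) and 1 under K01068 (acyl-CoA thioesterase).

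Line 55 (Zao8-3) is described as resistant to low temperature and line 102 (Ji853) as sensitive. Seeds imbibed for 6 h at 25 °C and were then kept for 2 h on germination paper at 25 °C (CT_55 and CT_102) or at 10 °C (LT_55 and LT_102). The 12 libraries comprised 3 biological repeats of each group, made from poly(A) RNA of seed embryos. With 1 line of each kind, a difference due to resistance and any other difference between the genotypes cannot be told apart.

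In plants, fatty acids are built on acyl carrier protein in the plastid, and the stromal acyl-ACP desaturases place the first double bond, turning stearoyl-ACP into oleoyl-ACP. Oleate that leaves the plastid receives a further double bond from FAD2 in the ER, which yields linoleate, the main polyunsaturated fatty acid of maize embryo oil. Saturated and monounsaturated acyl-CoAs can also be lengthened in the ER by an elongase whose reductase, dehydratase and enoyl reductase steps are shared by all chain lengths. More unsaturated membrane lipids stay fluid in the cold, and for this reason desaturases are often examined in chilled plant tissue.

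The deposited counts summed to between 44028579 and 67873652 per library. Of the members, 25 of 37 passed the filter on low values, which asked for at least 0.5 FPKM (the deposited level, normalised for transcript length and library depth) in at least 3 of the 12 libraries, and 22985 genes passed it in all. The 12 members below it reached at most 0.546 FPKM in any library, and 8 of these never had more than 15 counts. The embryo identity of the samples was checked with 11 oleosin, caleosin and vicilin or globulin-1 genes, none of which was at 0 in any library. Their summed level ranged from 9763 to 11822 FPKM in line 55 and from 13413 to 19175 FPKM in line 102. The mean was higher in line 102 for 8 of the 11. Of 29 zein genes, which mark endosperm, 25 had a higher mean in line 55 and 4 in line 102. The zein sum was 25.4 to 43.3 FPKM in line 55 against 1.51 to 7.36 FPKM in line 102. In every library of line 102, 7 were at 0, and in every library of line 55, 2 were. Most of the 29 were under the filter. The summed level of 18 genes of green tissue (chlorophyll a-b binding proteins and the small subunit of rubisco) was 33.4 to 43.3 FPKM in line 55 and 36.9 to 51.2 FPKM in line 102. The embryo and endosperm sums thus moved with the line, and so did the green tissue sum at 10 °C (33.4 to 36.3 FPKM in LT_55 and 46.3 to 51.2 in LT_102). In line 102 the endosperm sum also differed between the temperatures without overlap, at 1.51 to 2.1 FPKM in CT_102 and 3.02 to 7.36 in LT_102, and the green tissue sum did as well, at 36.9 to 43.7 and 46.3 to 51.2 FPKM. The part of these markers in the differences between the lines and temperatures was not tested. In such bulk tissue, fewer cells of a type and less RNA per cell cannot be told apart.

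Most expressed members differed between the lines, and most of these were downregulated in line 102. At 25 °C, 16 of 25 tested members passed in CT_102vsCT_55 (p under 0.05 in edgeR's quasi-likelihood test and a fold change of at least 1.5), against 48.1% of all tested genes. In this comparison 12 members were downregulated, against 23.8% of all genes, and 4 were upregulated, against 24.3%. At 10 °C, 16 of 25 passed again in LT_102vsLT_55 (51.1% of all genes), with 12 downregulated (26.1%) and 4 upregulated (25.1%). The same 16 genes passed at both temperatures, each in the same direction. Of all tested genes, 21.5% were downregulated and 21% upregulated at both temperatures. Among the 16, LOC103634953 (downregulated) and LOC100285462 (upregulated) passed the filter only through libraries of the line where they were higher. Their calls are therefore not independent of the filter. With the filter at 1 FPKM, 14 members passed at each temperature, beside 9933 of 20798 genes at 25 °C and 10627 of 20798 at 10 °C. All 16 also had an adjusted p under 0.05 in edgeR's test with Benjamini-Hochberg adjustment over all genes, which with the same fold held for 46.6% of all genes at 25 °C and 49.8% at 10 °C. The libraries of the lines did not overlap in FPKM for 18 of 25 members at 25 °C (66.6% of all genes) and 17 of 25 at 10 °C (69%). The median log2 fold change of the tested members was -0.44 at 25 °C and -0.55 at 10 °C, while that of all tested genes was 0.01 and 0.003. The 2 comparisons use separate libraries of the same 2 lines, so they repeat the measurement but not the genotype.

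**Figure D1:**
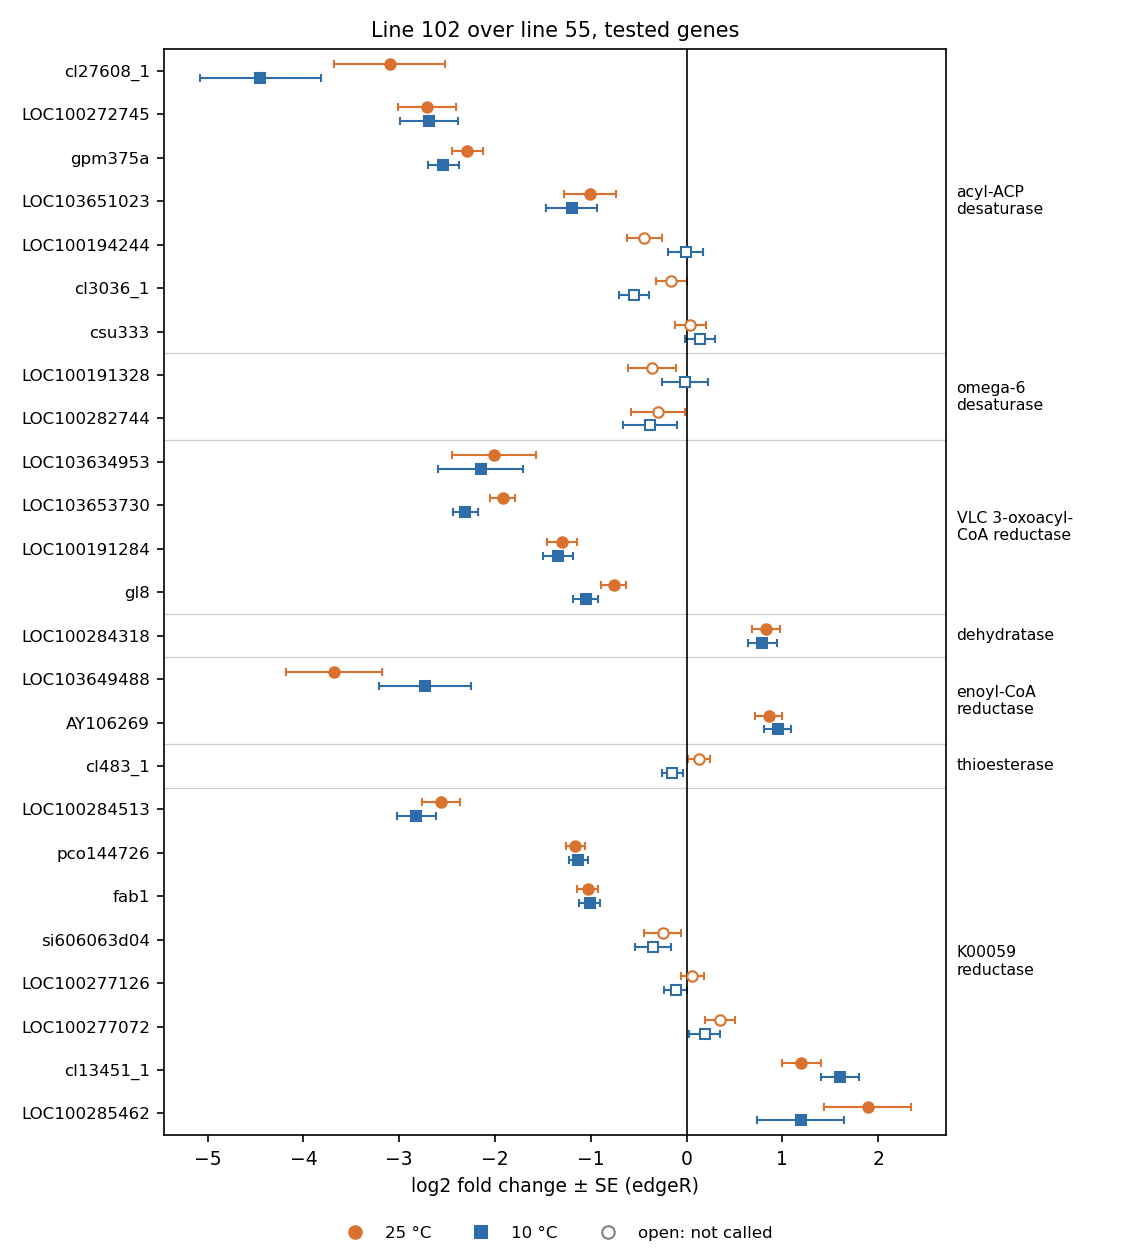
Log2 fold change of line 102 over line 55 (x axis, ± SE, edgeR) for the 25 tested genes, grouped by enzyme, at 25 °C (orange circles) and 10 °C (blue squares). Filled symbols passed the test and the fold threshold. The 12 genes on the left with filled symbols were lower in line 102 at both temperatures and the 4 on the right higher, while csu333 and both FAD2 genes have open symbols.

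The stromal acyl-ACP desaturases, the desaturase step with the highest transcript level, were together lower in line 102. Of the 12 genes under K03921, 7 were tested, and 4 of them were downregulated in line 102 at both temperatures while none was upregulated. One of the 4, LOC103651023, is described in the same table as transcription factor PCL1, a circadian clock regulator, and not as a desaturase, so it was kept out of the sums that follow. The summed level of the other 11 genes was 257 ± 17.2 FPKM in CT_55, 108 ± 3.6 in CT_102, 265 ± 10 in LT_55 and 101 ± 8.67 in LT_102 (mean ± SD, n = 3). The lowest library of line 55 reached 245 FPKM and the highest of line 102 reached 111 FPKM, so the sums did not overlap. The sum of line 55 was 2.37 times that of line 102 at 25 °C and 2.62 times at 10 °C.

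Most of that gap came from gpm375a (chr3:162244081-162248615, plus strand, B73 RefGen_v4), which the maize annotation also names SAD1, a stearoyl-ACP desaturase. It was present at 125, 126 and 159.9 FPKM in CT_55 and at 142, 129 and 186 FPKM in LT_55. In CT_102 it was present at 32.02, 30.6 and 24.7 FPKM and in LT_102 at 28.8, 28.6 and 24.0 FPKM. The lowest library of line 55 thus lay far above the highest of line 102, and the temperatures overlapped within each line. In edgeR's test the log2 fold change of line 102 over line 55 (± SE, here and below) was -2.29 ± 0.16 (adjusted p = 1.1e-07) at 25 °C and -2.54 ± 0.16 (adjusted p = 4.7e-08) at 10 °C.

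The second most abundant acyl-ACP desaturase did not follow it. csu333 (chr10:107470951-107474846, plus strand), described as stearoyl-ACP desaturase 11, was present at 59.6, 57.9 and 46.8 FPKM in CT_55 and at 59.7, 56.0 and 59.7 FPKM in CT_102. At 10 °C it was present at 51.3, 60.9 and 35.04 FPKM in LT_55 and at 59.4, 56.7 and 51.0 FPKM in LT_102. The groups overlapped at both temperatures. The log2 fold change of line 102 over line 55 was 0.04 (95% interval -0.3 to 0.39) at 25 °C and 0.14 (-0.2 to 0.48) at 10 °C, so a difference of the size seen for gpm375a lay outside both intervals.

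As a result the leading acyl-ACP desaturase transcript was a different gene in each line. gpm375a made up 53.7% ± 10.2 of the summed FPKM of the 11 genes in CT_55 and 57.8% ± 13.1 in LT_55, but 26.8% ± 2.73 in CT_102 and 26.9% ± 0.523 in LT_102 (SD, n = 3). csu333 made up 21.4% ± 2.48 and 18.4% ± 4.33 in CT_55 and LT_55, and 54.0% ± 3.04 and 55.3% ± 0.817 in CT_102 and LT_102. In every library of line 55 gpm375a was the larger of the pair, and in every library of line 102 csu333 was.

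**Figure D2:**
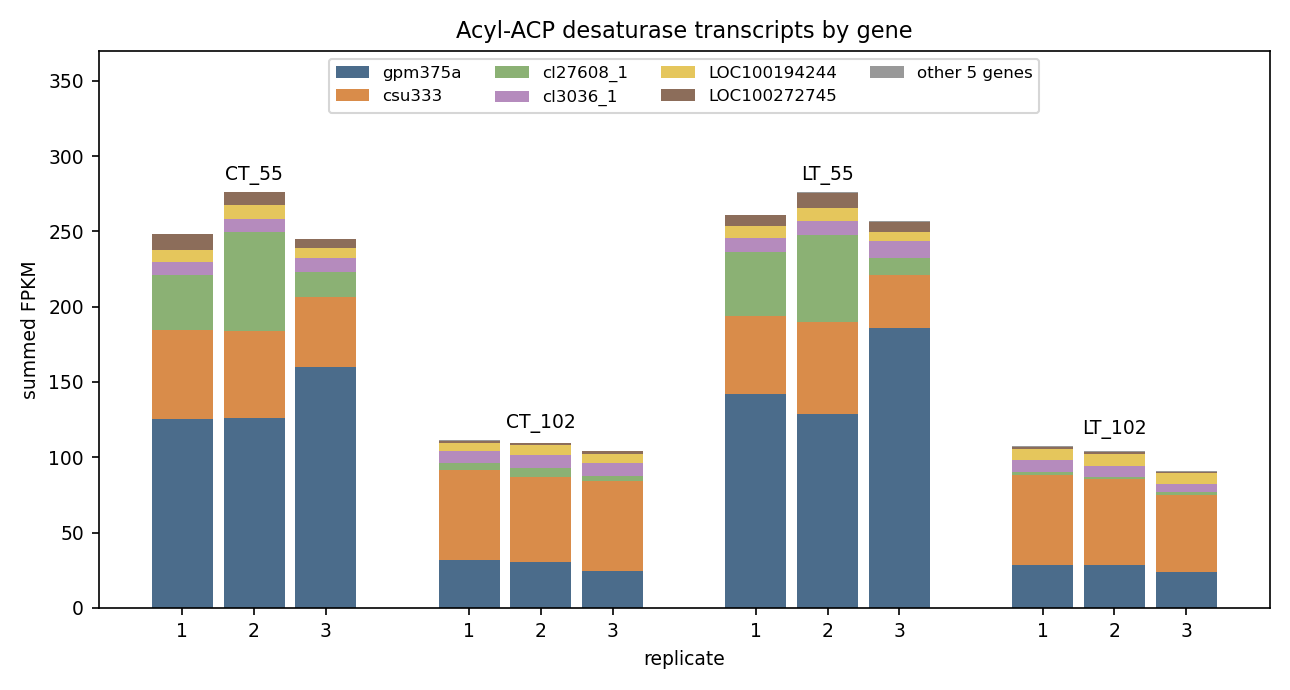
Summed FPKM of the 11 acyl-ACP desaturase genes (y axis) in each of the 12 libraries, 1 bar per replicate, coloured by gene. The bars of line 55 stand between 245 and 276 FPKM and those of line 102 between 91.0 and 111 FPKM. The gpm375a segment (blue) is the largest in every bar of line 55, and the csu333 segment (orange) is the largest in every bar of line 102.

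Another pair of acyl-ACP desaturases was downregulated in line 102 at both temperatures. cl27608_1 (chr8:170366961-170368457, minus strand), which carries the same KO and no descriptive name, was present at 36.4, 65.8 and 16.1 FPKM in CT_55 and at 4.42, 6.48 and 3.36 FPKM in CT_102. At 10 °C it stood at 42.9, 58.1 and 11.5 FPKM in LT_55 and at 2.32, 1.35 and 1.63 FPKM in LT_102. The lines did not overlap, although replicate 3 of line 55 was low at both temperatures. The log2 fold change was -3.10 ± 0.58 (edgeR, adjusted p = 0.00054) at 25 °C and -4.45 ± 0.63 (adjusted p = 5.4e-05) at 10 °C.

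LOC100272745 (chr4:99666979-99668867, minus strand), an acyl-ACP desaturase by description, was present at 10.6, 8.33 and 5.87 FPKM in CT_55 and at 1.32, 0.952 and 1.60 FPKM in CT_102. In LT_55 it stood at 7.39, 10.1 and 6.39 FPKM and in LT_102 at 1.41, 1.5 and 0.868 FPKM. All 6 libraries of line 55 were above all 6 of line 102. Its log2 fold change was -2.71 ± 0.30 (edgeR, adjusted p = 8.6e-06) at 25 °C and -2.69 ± 0.30 (adjusted p = 8.4e-06) at 10 °C. The gene overlaps LOC100274362 on the opposite strand, and reads of the pair cannot be told apart because no use of strand in counting is stated. The level of LOC100274362 was 40.8, 43.0, 44.4 and 52.6 FPKM (means of CT_55, CT_102, LT_55 and LT_102), with no fall in line 102.

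The remaining tested desaturase genes of this KO were not called between the lines with all libraries. cl3036_1 stood at 8.303, 8.49 and 9.76 FPKM in CT_55 and at 8.3, 8.11 and 8.28 FPKM in CT_102. The gene's groups did not overlap, by a narrow margin, and its log2 fold change was -0.16 (95% interval -0.5 to 0.19). At 10 °C it stood at 9.19, 9.13 and 11.6 FPKM in LT_55 and at 7.55, 7.74 and 5.85 FPKM in LT_102, a log2 fold change of -0.55 (adjusted p = 0.0095, edgeR) that stayed under the fold threshold, although the groups did not overlap. It passed when replicate 1 or 2 of LT_102 or replicate 1 or 2 of LT_55 was left out, at -0.59 to -0.63 (adjusted p = 0.012 to 0.019). LOC100194244, described as stearoyl-ACP desaturase 5, had group means between 6.06 and 7.96 FPKM, with a log2 fold change of -0.44 (95% interval -0.84 to -0.04) at 25 °C and -0.01 (-0.41 to 0.39) at 10 °C. The lines overlapped for LOC100194244 at both temperatures.

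LOC103651023, the gene described as PCL1, had means of 2.61 ± 0.802 FPKM in CT_55 and 1.34 ± 0.196 in CT_102 (SD, n = 3). At 10 °C the means were 2.45 ± 0.511 in LT_55 and 1.09 ± 0.201 in LT_102. The log2 fold change of LOC103651023 was -1.01 at 25 °C (adjusted p = 0.0065, edgeR) and -1.20 at 10 °C (adjusted p = 0.0021), and the groups did not overlap. The other 5 genes of K03921 (LOC100284715, LOC100284776, LOC100284973, LOC100382139 and LOC103638337) were under the filter. Among them LOC100284776 was the one with a steady difference, at 0.0658 ± 0.0266 FPKM in CT_55 against 0.231 ± 0.0332 in CT_102, and at 0.0872 ± 0.044 in LT_55 against 0.267 ± 0.0488 in LT_102. It was chosen after its values were seen, and at these levels it adds under 1% to the sum.

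**Figure D3:**
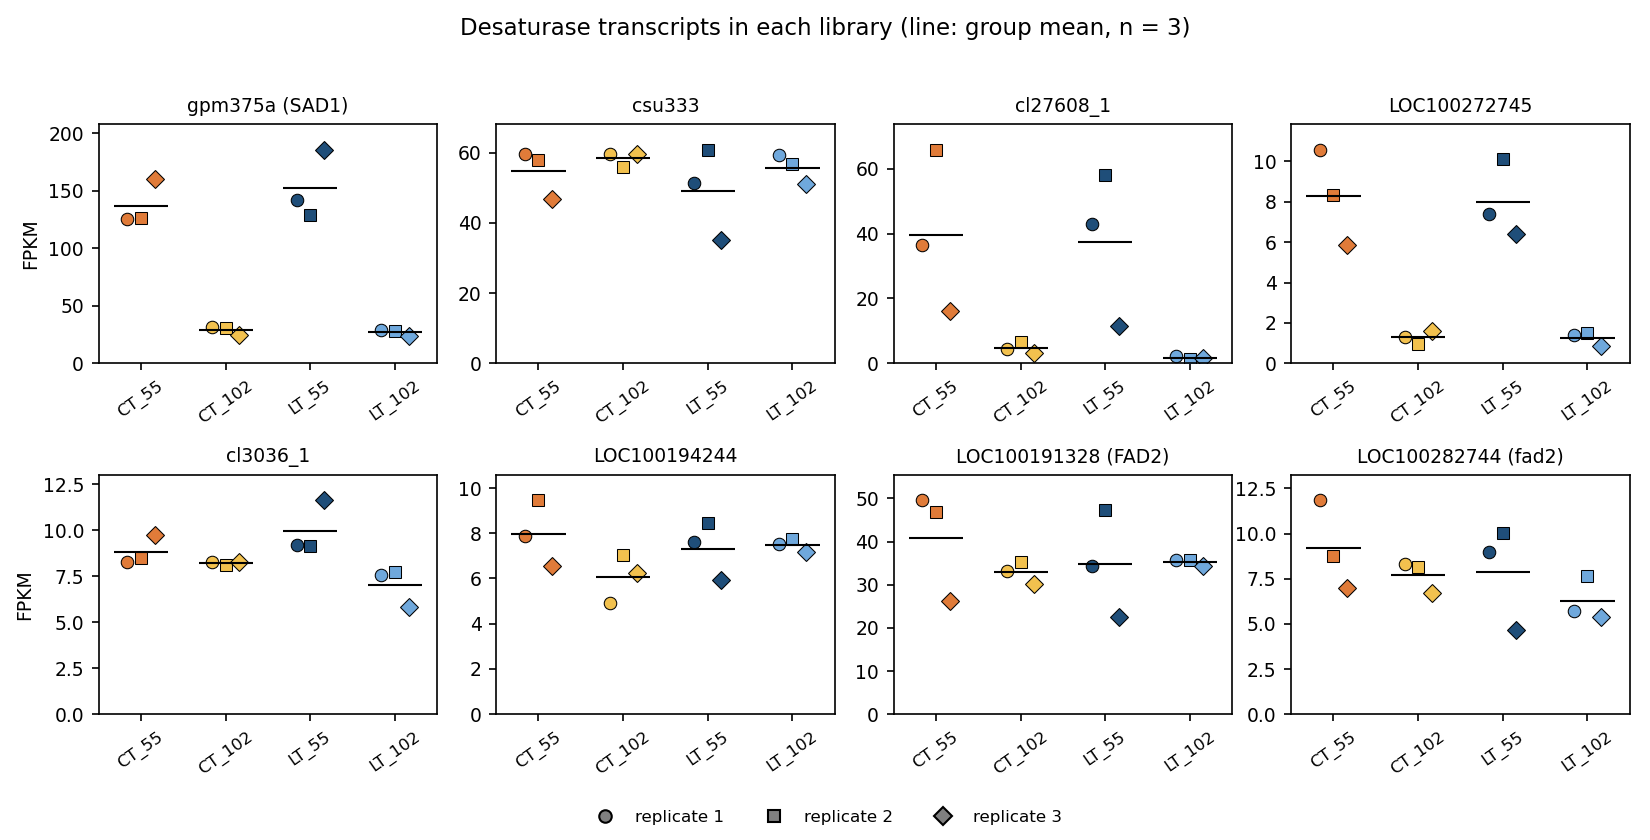
FPKM (y axis, from 0) of the 6 acyl-ACP desaturase genes that passed the filter and the 2 FAD2 genes, in each library of CT_55, CT_102, LT_55 and LT_102 (circle, square and diamond for replicates 1, 2 and 3; line, group mean). gpm375a, cl27608_1 and LOC100272745 stand higher in line 55 at both temperatures, and the diamonds of line 55 stand apart in gpm375a, csu333, cl27608_1 and LOC100191328.

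For the next double bond the lines could not be separated. LOC100191328 (chr5:208460744-208465650, minus strand), the ER delta-12 desaturase FAD2, was present at 49.5, 46.7 and 26.3 FPKM in CT_55 and at 33.1, 35.3 and 30.2 FPKM in CT_102. It was present at 34.4, 47.3 and 22.6 FPKM in LT_55 and at 35.7, 35.7 and 34.3 FPKM in LT_102. The libraries of line 102 all lay inside the range of line 55. The log2 fold change was -0.36 (95% interval -0.9 to 0.17) at 25 °C and -0.02 (-0.56 to 0.51) at 10 °C.

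The second FAD2 gene, LOC100282744 (chr4:165279901-165288460, minus strand), stood at 11.8, 8.73 and 6.96 FPKM in CT_55 and at 8.33, 8.13 and 6.73 FPKM in CT_102. At 10 °C it stood at 8.96, 10.0 and 4.69 FPKM in LT_55 and at 5.71, 7.66 and 5.35 FPKM in LT_102. The groups overlapped, with log2 fold changes of -0.30 (95% interval -0.9 to 0.3) and -0.38 (-0.98 to 0.22). Whether the FAD2 genes were called depended on replicate 3 of line 55. Without CT_55 replicate 3 the log2 fold change of LOC100191328 at 25 °C was -0.60 (adjusted p = 0.031, edgeR), and without LT_55 replicate 3 that of LOC100282744 at 10 °C was -0.62 (adjusted p = 0.036), both past the threshold. The third gene, LOC103631986, described as fatty acid desaturase DES2, was under the filter and reached at most 0.189 FPKM.

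Acyl-ACP desaturase transcripts therefore exceeded FAD2 transcripts by different margins in the lines. The summed FPKM of the 3 FAD2 genes was 50.1 ± 14.8 in CT_55, 40.6 ± 3.29 in CT_102, 42.8 ± 15.1 in LT_55 and 41.5 ± 1.87 in LT_102 (SD, n = 3), and the lines overlapped at both temperatures. This is a comparison of transcript levels per length, not of enzyme activity.

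**Figure D4:**
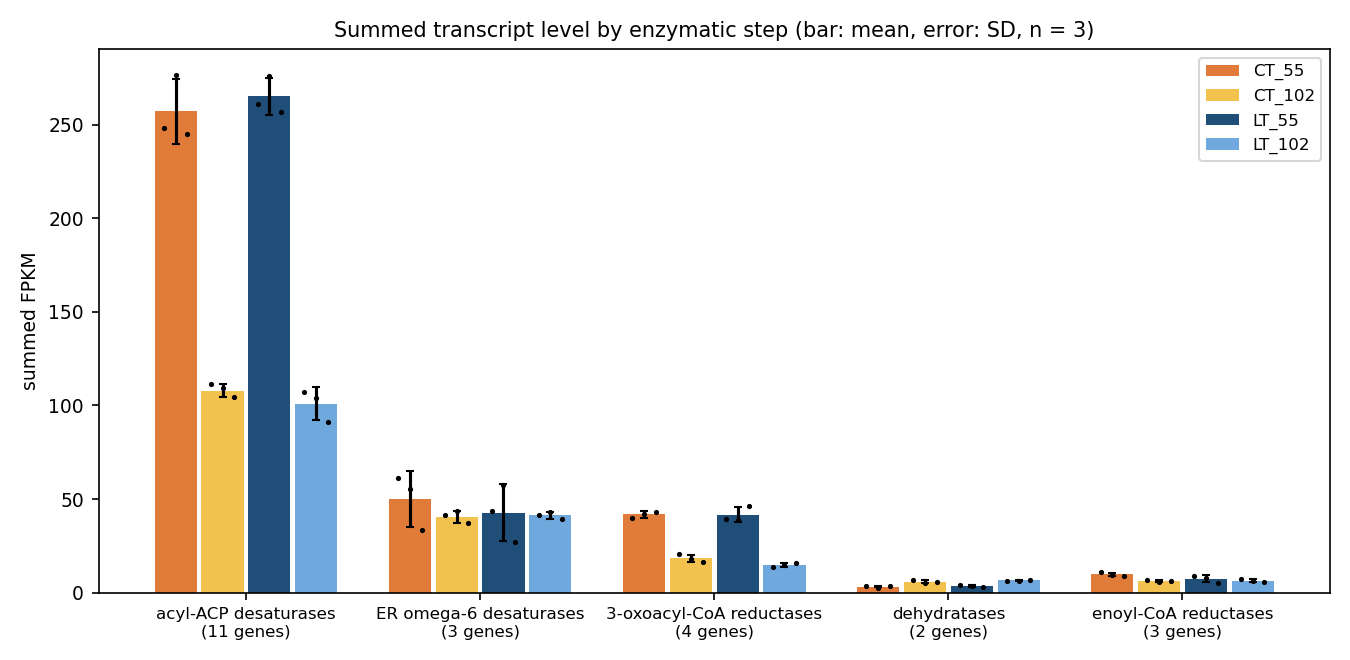
Summed FPKM (y axis) of the genes at 5 enzymatic steps in CT_55, CT_102, LT_55 and LT_102 (bars, means; error bars, SD, n = 3; dots, libraries). The acyl-ACP desaturases and the 3-oxoacyl-CoA reductases were lower in line 102 and the dehydratases higher, with no overlap of libraries, while the FAD2 sums overlapped. The enoyl-CoA reductase sum was lower in line 102 at 25 °C and overlapped at 10 °C, with its 2 tested genes differing in opposite directions.

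In the elongation cycle of the ER, the first reduction was lower in line 102 at every gene. All 4 genes under K10251, the 3-oxoacyl-CoA reductase, were tested and downregulated at both temperatures, although LOC103634953 passed the filter only through line 55. Their summed level was 41.8 ± 1.82 FPKM in CT_55, 18.4 ± 2.01 in CT_102, 41.6 ± 4.02 in LT_55 and 15 ± 1.1 in LT_102 (SD, n = 3). Line 55 stood at 2.27 times the level of line 102 at 25 °C and at 2.77 times at 10 °C. gl8 (glossy 8, chr5:185769145-185771896, minus strand), needed in maize for normal surface wax, was the most abundant of them. It stood at 15.3, 20.01 and 18.2 FPKM in CT_55 and at 12.5, 10.5 and 9.72 in CT_102. At 10 °C the values were 17.5, 16.7 and 19.9 in LT_55 and 8.18, 8.96 and 9.78 in LT_102. The lines did not overlap, with a log2 fold change of -0.76 ± 0.13 (edgeR, adjusted p = 0.0003) at 25 °C and -1.05 ± 0.13 (adjusted p = 2.1e-05) at 10 °C.

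LOC103653730 (chr4:135838027-135841317, minus strand), the gl8b copy, showed a larger difference from a like level in line 55. It was present at 16.6, 15.7 and 17.8 FPKM in CT_55 and at 5.25, 4.42 and 4.04 in CT_102. At 10 °C the values were 15.8, 16.8 and 19.4 in LT_55 and 3.71, 3.503 and 3.58 in LT_102. The libraries of the lines lay wide apart. Its log2 fold change was -1.92 ± 0.13 (edgeR, adjusted p = 1.1e-07) at 25 °C and -2.31 ± 0.13 (adjusted p = 2.6e-08) at 10 °C. gl8 and gl8b are related copies, and whether reads were split between them could not be examined. The other 2 reductases were LOC100191284 and LOC103634953. LOC100191284 had log2 fold changes of -1.30 and -1.34. LOC103634953 had -2.01 and -2.15, from a low mean of 0.49 FPKM in CT_55. It reached at most 0.164 FPKM in line 102, so its calls are not independent of the filter.

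At the next 2 steps of the cycle single genes stood higher in line 102. LOC100284318 (chr8:119691976-119695828, minus strand), the 3-hydroxyacyl-CoA dehydratase that was expressed, stood at 3.42, 2.79 and 3.47 FPKM in CT_55 and at 6.93, 5.27 and 5.67 in CT_102. At 10 °C the values were 3.97, 3.86 and 3.17 in LT_55 and 6.45, 6.51 and 6.62 in LT_102. It was upregulated in line 102 in both comparisons, with log2 fold changes of 0.83 ± 0.15 (edgeR, adjusted p = 0.00038) and 0.79 ± 0.15 (adjusted p = 0.00051), and the groups did not overlap. The other dehydratase, LOC100383128 (PASTICCINO 2), was under the filter, with at most 0.0761 FPKM.

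The summed level of the 3 enoyl-CoA reductase genes was 9.77 ± 1.02 FPKM in CT_55 and 6.21 ± 0.484 in CT_102, without overlap, and 7.49 ± 1.82 in LT_55 and 6.51 ± 0.749 in LT_102, with overlap (SD, n = 3). The genes behind this sum differed in direction. The lower sum in CT_102 came from LOC103649488, whose reads could not be assigned to it alone. AY106269 (chr8:15000100-15005337, minus strand), an enoyl-CoA reductase by its KO, stood at 2.92, 3.13 and 3.03 FPKM in CT_55 and at 6.48, 5.08 and 5.49 in CT_102, and at 3.05, 3.18 and 2.55 in LT_55 and at 6.67, 5.25 and 5.61 in LT_102. All libraries of line 102 were above all those of line 55. The log2 fold changes were 0.86 ± 0.14 (edgeR, adjusted p = 0.00018) and 0.95 ± 0.14 (adjusted p = 7.2e-05).

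LOC103649488, which shares the KO of AY106269 but is described as a 3-oxo-5-alpha-steroid 4-dehydrogenase, had the largest fold change of any tested member at 25 °C. It stood at 7.95, 6.11 and 5.80 FPKM in CT_55 and at 0.282, 0.763 and 0.477 in CT_102. At 10 °C the values were 5.82, 4.77 and 2.74 in LT_55 and 0.68, 1.02 and 0.28 in LT_102. The lines did not overlap, and the values in line 102 rest on 6 to 21 counts per library. The log2 fold change was -3.68 ± 0.50 (edgeR, adjusted p = 4.6e-05) at 25 °C and -2.73 ± 0.48 (adjusted p = 0.00034) at 10 °C. LOC103648262 overlaps it on the opposite strand and had means of 3.16, 0.101, 1.78 and 0.143 FPKM in CT_55, CT_102, LT_55 and LT_102, so from which of the genes the reads came cannot be told apart. The third gene of the KO, LOC100281302, was under the filter.

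The 12 genes under K00059 are a mixed group. 3-Oxoacyl-ACP reductase carries out the first reduction of plastid fatty acid synthesis, but only 4 of the 12 carry that activity among their gene ontology terms, and 2 of these were tested. fab1 (fatty acid biosynthesis 1, chr10:108840836-108848575, plus strand) was downregulated in line 102, with means of 17.3 ± 0.3 FPKM in CT_55, 8.73 ± 1.0 in CT_102, 17.8 ± 1.83 in LT_55 and 9.11 ± 0.518 in LT_102 (SD, n = 3). Its log2 fold change was -1.03 at 25 °C (SE 0.11, adjusted p = 5.5e-06, edgeR) and -1.01 at 10 °C (SE 0.11, adjusted p = 6e-06). cl13451_1 (chr5:167011837-167016805, minus strand) moved the opposite way from a low level, at 0.857 ± 0.0841 FPKM in CT_55 against 2.07 ± 0.221 in CT_102 and 0.816 ± 0.165 in LT_55 against 2.58 ± 0.286 in LT_102. Its log2 fold change was 1.20 ± 0.20 (edgeR, adjusted p = 0.00022) and 1.60 ± 0.20 (adjusted p = 2e-05).

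pco144726 (chr2:216891212-216892610, plus strand), under the same KO with no descriptive name and no term for that activity, was by far the most abundant member, ranking 25 of 22985 tested genes by mean FPKM. It stood at 3934, 4420 and 3801 FPKM in CT_55 and at 1732, 2061 and 1837 in CT_102. At 10 °C the values were 3983, 4210 and 3252 in LT_55 and 1779, 1805 and 1824 in LT_102. The lines did not overlap at either temperature. It was downregulated in line 102, with a log2 fold change of -1.16 ± 0.10 (edgeR, adjusted p = 1.3e-06) at 25 °C and -1.13 ± 0.10 (adjusted p = 1.5e-06) at 10 °C. Without it the summed FPKM of the other 11 genes of the KO was 90.8 ± 7.56 in CT_55 and 79.4 ± 5.73 in CT_102. At 10 °C it was 90.4 ± 5.13 in LT_55 and 71.4 ± 5.21 in LT_102.

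LOC100284513, described as estradiol 17-beta-dehydrogenase 8, fell from 14.02 ± 1.63 FPKM in CT_55 to 2.48 ± 0.765 in CT_102 and from 14.7 ± 1.69 in LT_55 to 2.13 ± 0.199 in LT_102 (SD, n = 3). Its log2 fold changes were -2.56 ± 0.20 (edgeR, adjusted p = 3.7e-07) and -2.82 ± 0.20 (adjusted p = 1.6e-07). LOC100285462, described as versicolorin reductase, was upregulated in line 102 by 1.89 ± 0.45 (edgeR, adjusted p = 0.0031) and 1.19 ± 0.45 (adjusted p = 0.034) on the log2 scale, from 0.194 FPKM in CT_55. Its groups overlapped at 10 °C, and the 10 °C call was lost without LT_102 replicate 1 (0.86), LT_102 replicate 2 (1.11) or LT_55 replicate 2 (0.96). LOC100285462 passed the filter only through libraries of line 102. It overlaps cl9462_1 on the opposite strand, which stood between 45.6 and 48.5 FPKM in the group means. Their reads cannot be told apart.

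The other 3 tested genes of the KO, LOC100277072, LOC100277126 and si606063d04, were not called, with log2 fold changes between -0.35 and 0.35 over both comparisons. Of the 4 under the filter, LOC103646607 is described as 3-oxoacyl-ACP reductase 4-like and reached 0.25 ± 0.0552 FPKM in CT_102 and 0.391 ± 0.0818 in LT_102, against 0.011 ± 0.0124 in CT_55 and 0.00815 ± 0.0141 in LT_55 (SD, n = 3). It was singled out after its values were seen. The thioesterase cl483_1, which releases fatty acids from coenzyme A, was not called, at 19.5 ± 3.36 FPKM in CT_55, 22.1 ± 0.945 in CT_102, 21.7 ± 1.21 in LT_55 and 20.2 ± 0.511 in LT_102.

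No member was called for temperature. In LT_55vsCT_55, 0 of 25 tested members had an adjusted p under 0.05 (edgeR), against 0.0522% of all tested genes, and 0 of 25 had an unadjusted p under 0.05, against 4.43%. In LT_102vsCT_102, 0 of 25 had an adjusted p under 0.05 (0.679% of all genes), and 3 had an unadjusted p under 0.05 (13% of all genes). DESeq2 and limma also called 0 members in each line. The response differed between the lines, as an interaction, for 0 of 25 members (0.00435% of all genes), with 0 at an unadjusted p under 0.05 (6.33%). The median absolute log2 fold change of the members was 0.12 in line 55 and 0.21 in line 102, beside 0.12 and 0.17 for all tested genes and beside 1.01 and 1.05 for the same members between the lines at 25 °C and 10 °C.

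**Figure D5:**
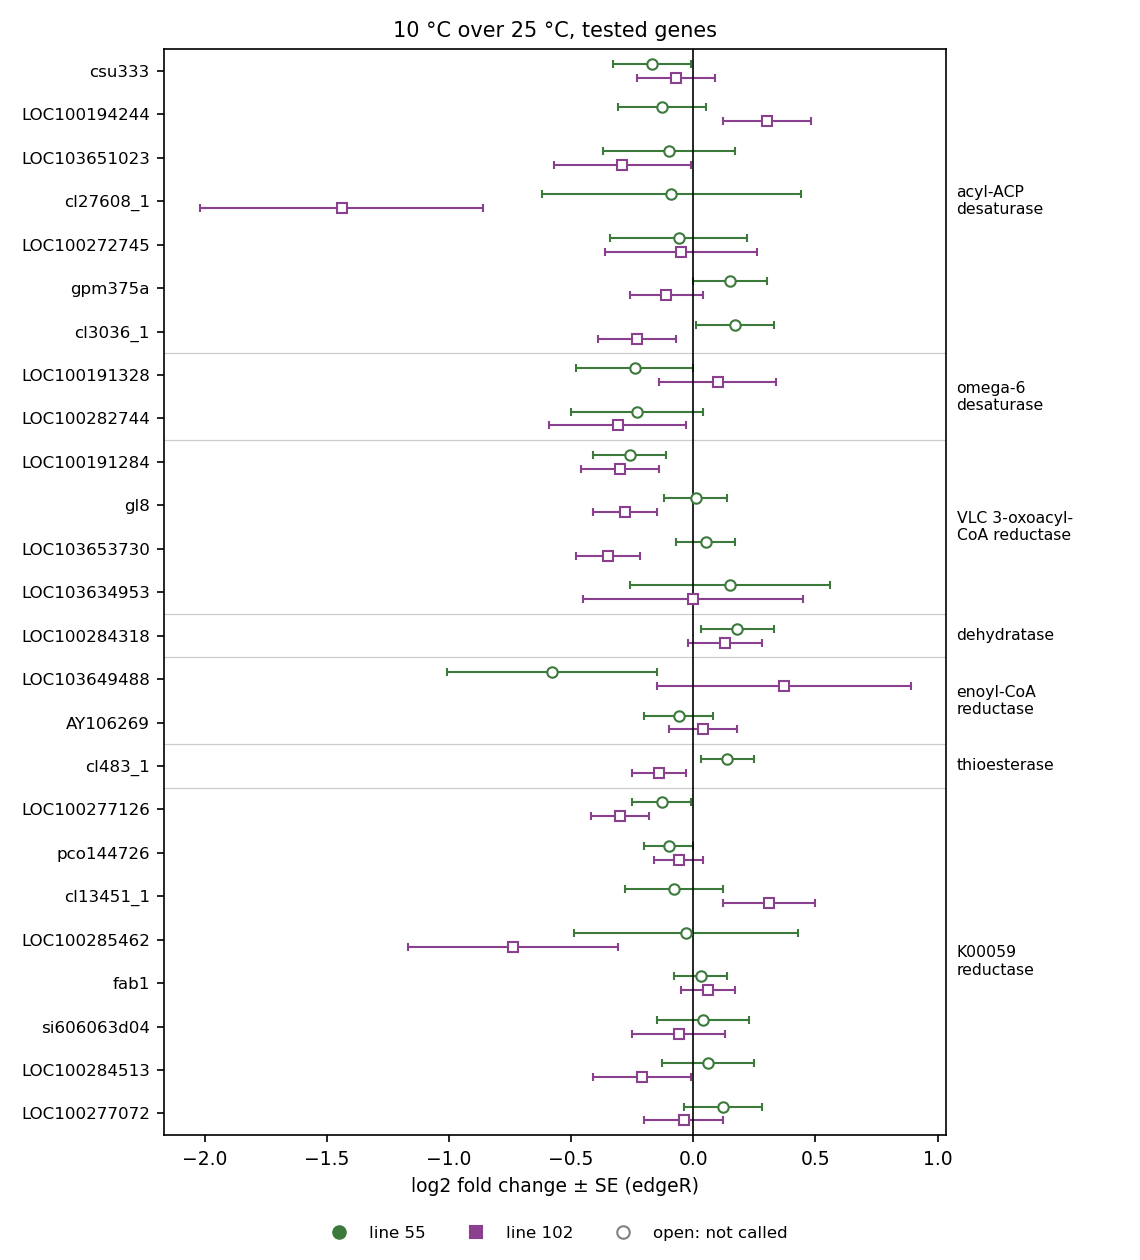
Log2 fold change of 10 °C over 25 °C (x axis, ± SE, edgeR) for the 25 tested genes, grouped by enzyme, in line 55 (green circles) and line 102 (purple squares). All symbols are open because no gene was called. The widest departure from 0 is cl27608_1 in line 102 at -1.44.

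The 3 most abundant desaturase genes had log2 fold changes of 10 °C over 25 °C between -0.24 and 0.15. gpm375a had 0.15 (95% interval -0.18 to 0.47) in line 55 and -0.11 (-0.43 to 0.22) in line 102. The FAD2 gene LOC100191328 had -0.24 (-0.78 to 0.29) and 0.10 (-0.44 to 0.63), and csu333 had -0.17 (-0.51 to 0.17) and -0.07 (-0.42 to 0.27). The outer ends of these intervals, -0.78 and 0.63, both belonged to LOC100191328. The intervals of gpm375a and csu333 were narrower and lay within -0.51 to 0.47. Every interval held values of both signs. The smallest response that 3 libraries a group could detect in these 3 genes was not tested.

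The member with the largest temperature difference was cl27608_1 in line 102, whose 3 libraries at 10 °C (2.32, 1.35 and 1.63 FPKM) all lay below the 3 at 25 °C (4.42, 6.48 and 3.36 FPKM). The log2 fold change was -1.44 (SE 0.58, unadjusted p = 0.03, adjusted p = 0.32, edgeR), and in line 55 it was -0.09 (SE 0.53). The interaction was -1.35 ± 0.79 (adjusted p = 0.85). The call changed with the libraries that entered the estimate of the spread. With line 102 fitted alone its log2 fold change was -1.45 with an adjusted p of 0.033, and without replicate 3 of CT_55 and LT_55 it was -1.44 with an adjusted p of 0.038 (edgeR).

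The other 2 members with an unadjusted p under 0.05 in line 102 were the reductase LOC103653730, with a log2 fold change of -0.35 (adjusted p = 0.27, edgeR), and LOC100277126 of K00059, with -0.30 (adjusted p = 0.32). The levels of 8 of 25 members did not overlap between LT_102 and CT_102, against 26.1% of all tested genes, and those of 0 of 25 did not overlap between LT_55 and CT_55, against 7.23%. With 3 libraries against 3 the exact permutation test on a single gene cannot go below p = 0.1.

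Replicate 3 of line 55 stood apart from replicates 1 and 2 in several desaturases, in the same way at both temperatures. Relative to the mean of replicates 1 and 2, cl27608_1 was at 0.315 in CT_55 and 0.228 in LT_55, LOC100191328 at 0.546 and 0.553, LOC100282744 at 0.677 and 0.494, and csu333 at 0.797 and 0.625. gpm375a stood the other way, at 1.27 and 1.37. The summed acyl-ACP desaturase level of these libraries, 245 and 257 FPKM, lay beside that of replicate 1 (248 and 261 FPKM), with gpm375a high and cl27608_1 and csu333 low. Over the 25 tested members, 8 were higher and 9 lower than the other replicates in both groups, which is 68% on the same side against 69.7% of all genes with a value. In line 102 the figures for replicate 3 were 44% and 53.5%. Without these 2 libraries 17 members passed between the lines at each temperature, the additional ones being LOC100191328 at 25 °C and LOC100282744 at 10 °C.

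Desaturases that the rule did not reach were looked up by description after the values of the members were known. Under the terms fatty acid desaturase and acyl-ACP desaturase there were 8, of which 5 were tested. LOC100279397, described as a desaturase/cytochrome b5 protein, fell outside these terms and stood in the list of electron donors below. It was downregulated in line 102, with log2 fold changes of -2.33 and -4.18 (adjusted p = 0.026 and 0.002, edgeR), from 0.627 FPKM in CT_55. LOC103157010, described as an acyl-ACP desaturase, carries K00850, which is not a desaturase number, so its KO and its description disagree. It was upregulated in line 102, at 15.3, 13.8 and 15.9 FPKM in CT_55 and 40.3, 35.5 and 34.9 in CT_102. At 10 °C it stood at 12.4, 13.4 and 21.3 in LT_55 and 34.4, 31.8 and 25.8 in LT_102. The lines did not overlap, with log2 fold changes of 1.25 ± 0.19 (edgeR, adjusted p = 0.00012) and 0.91 ± 0.19 (adjusted p = 0.0012). If LOC103157010 is counted by its description, the acyl-ACP desaturase sum was 272 ± 16.1 FPKM in CT_55 against 145 ± 6.2 in CT_102 (SD, n = 3). At 10 °C it was 280 ± 8.18 in LT_55 against 132 ± 13.1 in LT_102. The ratios were 1.87 and 2.13. The plastid omega-6 desaturase LOC100101547, with group means of 29.4, 30.6, 33.6 and 30.8 FPKM in CT_55, CT_102, LT_55 and LT_102, was not called. Neither were the omega-3 desaturases fad7 and LOC103644592, both under 5 FPKM in every library. LOC100281245, described as an omega-3 desaturase and under 1 FPKM in every library, was downregulated in line 102 at 25 °C, with a log2 fold change of -1.60 (edgeR, adjusted p = 0.0084), and was not called at 10 °C.

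The surrounding pathways were described from lists of their other genes, whose counts stand beside 24.3% upregulated and 23.8% downregulated in line 102 among all tested genes at 25 °C, and 25.1% and 26.1% at 10 °C. Of 50 further genes in the fatty acid synthesis map, 43 were tested. In line 102, 11 were upregulated and 5 downregulated at 25 °C, and 9 and 5 at 10 °C. The shares were 25.6% and 20.9% upregulated, and 11.6% downregulated at each temperature. The medians were -0.01 and -0.04 on the log2 scale. This list is mixed and not confined to the plastid. It holds long-chain acyl-CoA synthetases, a malonyl transacylase described as mitochondrial, a BEACH domain protein and genes described as transposases. LOC100281457, a long-chain acyl-CoA synthetase by its KO, was upregulated, with log2 fold changes of 2.41 and 2.51 (adjusted p = 6.6e-08 and 4.2e-08, edgeR), from 1.02 FPKM in CT_55 to 5.62 in CT_102. TIDP3607, an acetyl-CoA carboxylase by its KO, which makes the malonyl-CoA for each round of synthesis, was downregulated, at -1.42 and -1.36 on the log2 scale (adjusted p = 8.5e-07 and 1.1e-06), with 60.9 FPKM in CT_55 and 23.5 in CT_102. Of 33 further elongation genes, 16 were tested, with 2 upregulated and 5 downregulated at 25 °C (12.5% and 31.2%) and 3 and 6 at 10 °C (18.8% and 37.5%). Among these fae1, a 3-ketoacyl-CoA synthase that starts each elongation round, had log2 fold changes of -1.27 and -1.90 (adjusted p = 0.0027 and 0.00016, edgeR). Its level was low, with means of 0.895 FPKM in CT_55, 0.385 in CT_102, 0.877 in LT_55 and 0.241 in LT_102. Another 3-ketoacyl-CoA synthase, LOC100382638, had -0.43 and -0.70 (adjusted p = 0.035 and 0.0024) and passed the fold threshold at 10 °C only. pco084555(107) of this list was the one gene downregulated in LT_102vsCT_102, with a log2 fold change of -1.5 (adjusted p = 0.023), and it was named after its value was seen.

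Soluble desaturases draw electrons from ferredoxin and the ER enzymes from cytochrome b5. The list of 43 genes took in those with a KO of ferredoxin, ferredoxin-NADP reductase or cytochrome b5 reductase and those with cytochrome b5 in their description. The last term also matched 6 cytochrome b561 genes, which encode other proteins. Of the 43, 33 were tested, with 5 upregulated and 15 downregulated in line 102 at 25 °C (15.2% and 45.5%) and 3 and 13 at 10 °C (9.09% and 39.4%), and medians of -0.42 and -0.37. Without the cytochrome b561 genes 29 were tested, with 5 upregulated and 14 downregulated at 25 °C and 3 and 12 at 10 °C. The summed level of all 43 genes was 1692 ± 149 FPKM in CT_55, 1110 ± 40.4 in CT_102, 1608 ± 113 in LT_55 and 1028 ± 5.26 in LT_102 (SD, n = 3). A single gene, the ferredoxin fdx3, made up most of each sum and is named here after its values were seen. Its means in these groups were 1050, 602, 980 and 562 FPKM, so the sums mainly follow that gene. LOC103649684, a cytochrome b5 reductase-like gene, was upregulated, with log2 fold changes of 1.35 and 1.66 (adjusted p = 4.7e-06 and 7.2e-07, edgeR). LOC103640685, which the KO placed in this list, is described as REVEILLE 4, a clock-related transcription factor, and was at 10.3 and 10.0 FPKM in CT_55 and LT_55 against 0.0897 and 0.159 in CT_102 and LT_102.

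Of 47 genes with a KO of the acyltransferases of glycerolipid assembly, which place the finished fatty acids on glycerol, 22 were tested, with 1 upregulated and 4 downregulated at 25 °C (4.55% and 18.2%) and 1 and 5 at 10 °C (4.55% and 22.7%). The list is mixed, since 25 of the 47 carry K00679 (phospholipid:diacylglycerol acyltransferase), of which 1 is described as an acyltransferase and 7 as GDSL esterase/lipases or anther-specific proline-rich proteins APG. LOC100383758, under the KO of the lysophosphatidic acid acyltransferase, is described as an organellar RNA editing factor. Of the 22 genes under the other KOs, 12 were tested, with 2 downregulated at each temperature and 0 upregulated. The upregulated gene was LOC100384378, which carries K00679 and no descriptive name, with log2 fold changes of 1.27 and 1.43 (adjusted p = 6.1e-06 and 1.9e-06, edgeR). pco137095b stood at 0.67 and 0.547 FPKM in CT_55 and LT_55 and was listed at 0 in all libraries of line 102. Apart from pco084555(107), no gene of these 4 lists was called for temperature in either line.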

How the data were processed

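Embryo mRNA libraries were prepared with a TruSeq RNA v2 kit and sequenced as paired ends. The authors' deposited table holds, per gene and library, read counts and FPKM; the submitters' notes name HISAT, StringTie, edgeR and the B73 RefGen_v4 genome. Versions and the counting strand are not given in the sources used here. Line 102 and line 55 were both compared with B73, so a lower count from sequence divergence and a lower transcript level cannot be told apart. Deposited counts were fitted as they stood with edgeR 4.0.16 (quasi-likelihood, TMM scaling, R 4.3.3), all 12 libraries in 1 model with 4 groups, after the filter of 0.5 FPKM in 3 libraries. Lines were compared at unadjusted p under 0.05 and a fold of 1.5, as in the study's methods, and temperatures and the interaction at adjusted p under 0.05 (Benjamini-Hochberg, 22985 genes). Deposited FPKM served for levels, sums and overlap. Of small counts, 37.3% were multiples of 4, and counts divided by 4 were an alternative. Tested on simulated data (200 of 22985 genes changed by 1 on the log2 scale), the fit recovered 75% in LT_102vsLT_55, 73.5% in LT_102vsCT_102 and 44% for the interaction. Recovery was counted at adjusted p under 0.05 without a fold rule, so the 75% does not describe the rule used for the lines. The changed genes had a mean of at least 1 FPKM, and the simulated spread followed the trend over all genes, not that of each gene. Apart from the changed genes, the simulated lines and temperatures did not differ, unlike the lines in the data. No gene was changed between LT_55 and CT_55, so recovery in that comparison was not measured. The alternatives were DESeq2 1.42.0, limma 3.58.1 on log2(FPKM + 0.1), median-ratio scaling, no filter or 1 FPKM, separate fits, a replicate block and leaving out each library.

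The members, lists and markers were chosen with earlier results of these data known. Named were all desaturases by KO, the most abundant gene of each other KO, any called for temperature, the 3 largest line differences in each direction among the rest, and 2 per surrounding list with the lowest p at 10 °C. Members outside this rule, such as fab1, are described as well. Coordinates are those of the deposited table. All 37 members were matched to names in the RefSeq maize annotation.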

Additional observations from a re-analysis of the deposited data

How the results depend on the processing

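The count of members called between lines ranged from 14 to 18 at 25 °C and 14 to 20 at 10 °C over the alternatives. It was lowest with the filter at 1 FPKM, which LOC103634953 and LOC100285462 did not pass. It was highest without a filter. There LOC103646607 and LOC100284776 were added at both temperatures, and LOC100281302 and LOC100383128 at 10 °C. Leaving out 1 library at a time gave 16 to 17 at 25 °C and 16 to 17 at 10 °C (gains included cl3036_1 at 10 °C), and 0 for temperature in both lines and for the interaction. The count for LT_102vsCT_102 rose from 0 to 1 with only the groups of the contrast, under the rule of unadjusted p and fold, and without replicate 3 of CT_55 and LT_55 together, the last chosen after seeing the data; the gene was cl27608_1 each time. With the replicate number as a block, 16 members were called at each temperature, the same 16, and 0 for temperature or interaction, and no call changed. Of 18 correlations between same-numbered libraries, 2 were over 0.1, both within line 55 (0.289 for replicate 3 and 0.19 for replicate 2, against -0.00858 for replicate 1), the lowest was -0.0522, and 6 of 12 libraries correlated best with their own number. Since not every pair was over 0.1, the numbers were not taken as pairs. The block gives each number the same effect in both lines, so it cannot take up a shift present in line 55 alone. A block within line 55 was not fitted. Single log2 fold changes were followed over the alternatives only for the tested members named by the rule above, and none of these changed direction past the threshold. Values in line 102 of LOC103649488 and of genes near the filter are limited by low counts. Sequence identity between copies was not examined here.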
